A study of Rattus norvegicus with 241 samples.

Results

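Luminal epithelial cells line the ducts and alveoli of the mammary gland and comprise hormone-sensing mature cells, which carry the estrogen and progesterone receptors, and progenitor and alveolar cells, which make milk. TGFβ ligands bind a receptor kinase pair, TGFBR2 and TGFBR1, and the activated TGFBR1 phosphorylates SMAD2 and SMAD3, which enter the nucleus with SMAD4 and alter transcription. In the mammary epithelium this pathway is known for restraining proliferation and ductal growth, and it is strongest in basal cells. LY2157299 (galunisertib, here TGFBRi) is a small molecule that inhibits the TGFBR1 kinase.

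The samples described here are bulk RNA-seq profiles of luminal cells from young Sprague Dawley (SD) rats on day 0, the day on which dosing stopped. They were selected by their labels (strain SD, young, day 0, cell type luminal), which gave 8 of 241 samples in the series, of which 202 were bulk profiles. All 8 were virgin females of an outbred strain, had intact normal mammary glands and received no carcinogen and no estradiol pellet. Of these, 4 rats (D7N, D7R, D8N and D8R) had been given 75 mg/kg TGFBRi by oral gavage in 2 doses a day for 10 consecutive days around puberty, and 4 rats (C6N, C6R, C7N and C7R) had been given vehicle on the same schedule. Each sample is the RNA of 1 rat's luminal sort, taken from live cells negative for the endothelial and leukocyte markers CD31 and CD45 by their CD24 and CD29 staining. The treated rats carry 2 different responder descriptions in their labels, and they were kept as 1 group. The comparison asks what the 10 days of TGFBR1 inhibition left in luminal cells before any carcinogen was given.

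The 8 libraries held 12830394 to 22178360 reads on genes, with 14322219 to 22178360 in vehicle and 12830394 to 19496567 in TGFBRi-treated rats, and between 11752 and 12771 genes had reads in a sample. The luminal identity of the sort was visible in the markers. All 8 luminal markers examined (KRT8, KRT18, KRT19, EPCAM, CD24, CLDN3, CLDN4 and CLDN7) had a higher mean in luminal than in basal samples of the same rats, and 7 of them were higher in every luminal than in every basal sample. Of 9 basal markers, 7 were lower in every luminal than in every basal sample. Vehicle rat C6N stood apart, with a median correlation of 0.885 with the other 7 samples across the genes tested, against 0.901 for D8N and 0.922 to 0.939 for the others. The C6N sample had more signal of basal, macrophage and milk genes than the other vehicle samples, so results that rest on it are given with and without it below.

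Values are normalized counts, which are reads per gene divided by 1 size factor per sample. Groups were compared by limma on log2(normalized count + 1) over the 12584 genes whose values summed to at least 10, and log2 differences are TGFBRi minus vehicle on that scale. A gene was called where its p, adjusted by Benjamini-Hochberg over all genes tested, was at most 0.05.

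No gene reached the threshold by limma (0 of 12584, or 0%). Every adjusted limma p was 1.0 when rounded, so the unadjusted limma p given below for single genes order the genes and make no call. In all, 244 genes had an unadjusted p below 0.05. On the reads, edgeR called 0 genes with 304 at an unadjusted p below 0.05, and DESeq2 called 1 gene, UPK3A, with 270. Of the 244 genes, 52 were higher after TGFBRi (0.413% of those tested) and 192 were lower (1.53%). Group values did not overlap for 49 genes that were higher (0.389%) and for 119 that were lower (0.946%). With 4 and 4 rats, 1 of 70 possible splits separates the groups in a given direction by label exchange alone. Both shares lay below 1 in 70. The 244 genes were also fewer than the share of 0.05 that would pass this unadjusted p without any difference. The genes named below by rank thus came from sets no larger than label exchange would give. The median log2 difference over all genes was -0.08, and 42.03% of genes were higher after TGFBRi. Of the 192 lower genes 135 had a mean under 50 normalized counts, against 24 of the 52 higher genes. Among all 12584 genes tested, 8784 had a mean of at least 50. With every library thinned to the lowest depth, 231 genes had an unadjusted p below 0.05, of which 51 were higher.

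**Figure D1:**
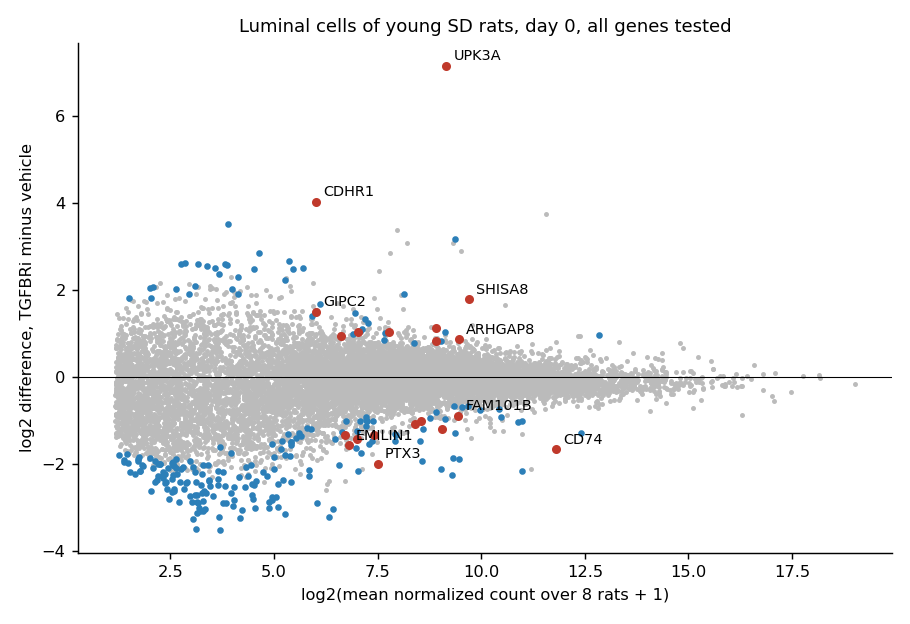
Each point is 1 of the 12584 genes tested in luminal samples, plotted by its log2 mean normalized count over 8 rats (x axis) and its log2 difference between TGFBRi and vehicle rats (y axis). Blue points have an unadjusted limma p below 0.05, red points are the 20 named genes, and UPK3A, at 7.15, lies above all other genes.

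UPK3A encodes uroplakin 3A, a membrane protein of the plaques that cover the urothelium of the bladder. The gene was nearly silent in luminal cells of vehicle rats and abundant in those of 3 of the 4 TGFBRi-treated rats. Vehicle rats C6N, C6R, C7N and C7R had 1.14, 4.17, 0 and 4.71 normalized counts, and TGFBRi-treated rats D7N, D7R, D8N and D8R had 1119, 1029, 2369 and 8.38. The groups did not overlap, but D8R lay close to the vehicle rats, and before scaling it held 7 reads, as did C6R and C7R. The log2 difference was 7.15 ± 1.39 (SE, n = 4 and 4 rats), with a 95% interval of 4.14 to 10.2, an unadjusted limma p of 0.000181 and an adjusted limma p of 1.0. DESeq2 gave a log2 difference of 8.77 ± 1.40 with an adjusted p of 4.59e-06, and edgeR one of 8.54 with an adjusted p of 0.156. Without C6N the limma difference was 7.02, and without D8R it was 8.95 with an adjusted limma p of 0.000708. UPK3A is the one gene of the luminal comparison for which any of the tools used made a call, and that call depended on the tool and on D8R.

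In the basal sort of the same rats D8N again had the highest and D8R the lowest treated value. UPK3A had 0 reads in the basal samples of all 4 vehicle rats, and 42.4, 47.02, 158 and 2.64 normalized counts in those of D7N, D7R, D8N and D8R. In D7N, D7R and D8N the basal value was 3.79%, 4.57% and 6.69% of the luminal one, and in D8R, with 4 basal and 7 luminal reads, it was 31.5%. Genes of luminal cells differed widely in this share over the 8 rats. It was 0.400% to 3.72% for the milk casein CSN3, 2.54% to 6.63% and 16.8% to 44.9% for the luminal keratins KRT18 and KRT8, and 57.3% to 112.3% for the epithelial adhesion protein EPCAM. The part of carried-over luminal cells in the basal UPK3A signal was not tested.

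In young ACI rats, an inbred strain whose luminal samples at day 0 were scaled separately (3 rats per group, the same dose and length of dosing), UPK3A lay in the opposite order. Per the study's methods, ACI rats were older than SD rats when dosed. Treated ACI rats LD7L and LD7R had 10192039 and 8922897 reads and 15060 and 15143 genes. The vehicle ACI rats had 18895823 to 21160386 reads and 12096 to 13296 genes. Strain, age and library cannot be told apart here. The vehicle rats had 663, 751 and 1072 normalized counts and the TGFBRi-treated rats had 17.1, 13.4 and 0, a log2 difference of -6.99 ± 1.09. Groups of neither strain overlapped, and in ACI rats 14.8% of the genes tested had groups that did not overlap in that direction. In luminal cells of NMU-exposed SD rats at day 87, the tumor-bearing vehicle rats had 0, 757 and 0 normalized counts, the tumor-free TGFBRi-treated rats 0, 31.9 and 0, and the tumor-bearing TGFBRi-treated rats 0, 4.10 and 18.4. The 1 value over 100 among these 9 rats was that of a vehicle rat.

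**Figure D2:**
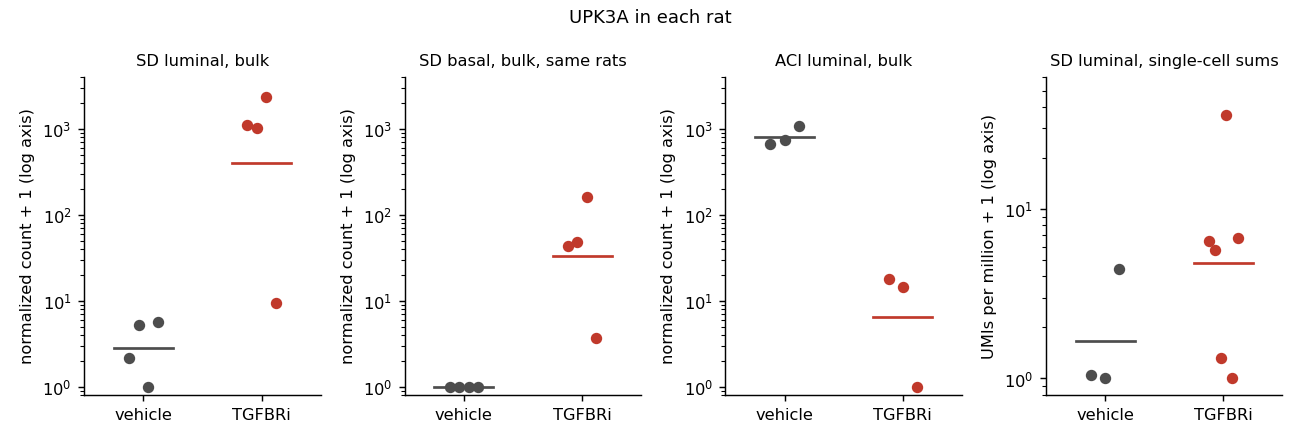
Each point is 1 rat, grouped by treatment, with UPK3A as normalized count + 1 in 3 bulk sets and as CPM + 1 in single-cell sums (log axes). Bars are means of the log values. TGFBRi-treated SD rats lie above vehicle rats in both bulk sorts, D8R being the lowest treated rat in each, and ACI rats lie in the opposite order.

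UPK3A lies on chromosome 7, and the 300 bases around its RefSeq start in assembly GRCr8 (chr7:118014540-118014839, plus strand, 250 bases before the start and 50 after it) are shown because it is the gene with the largest difference. Capitals mark the 1 match to the SMAD half-site CAGAC (here as its reverse complement GTCTG) and the 1 match to the GC box GGGGCGGGG.

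UPK3A promoter: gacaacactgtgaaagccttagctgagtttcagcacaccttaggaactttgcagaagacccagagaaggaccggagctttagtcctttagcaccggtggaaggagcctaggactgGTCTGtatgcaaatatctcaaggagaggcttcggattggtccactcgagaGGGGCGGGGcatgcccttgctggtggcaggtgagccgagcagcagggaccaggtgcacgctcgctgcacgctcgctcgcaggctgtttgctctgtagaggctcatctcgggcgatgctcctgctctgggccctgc

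The half-site was present on either strand in 50.1% of 33469 promoters of that length, the GC box in 9.73%, and the palindromic SMAD site GTCTAGAC, in 0.197% of promoters, was not among the letters of this window. Near UPK3A in the order of protein-coding genes, ARHGAP8 lies 4 genes before it and PRR5 lies 5 genes before it. ARHGAP8, a GTPase-activating protein, had 380, 519, 579 and 496 normalized counts in vehicle and 956, 1204, 849 and 640 in TGFBRi-treated rats. The groups did not overlap, and the log2 difference was 0.86 ± 0.31 (unadjusted limma p of 0.0156). PRR5, a subunit of the kinase complex mTORC2, had a log2 difference of 0.89 ± 0.50 with overlapping groups. PRR5 and ARHGAP8 are neighbours, and the counting did not use strand, so reads that span both cannot be assigned to either with certainty. Of 10 tested genes examined on both sides of UPK3A, ARHGAP8 was the 1 whose groups did not overlap (0.389% of all genes in that direction), and it had already been named for that property. FAM118A, the next gene after UPK3A, had means of 21.3 and 22.5 normalized counts.

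The other uroplakins did not follow UPK3A. UPK1A had a log2 difference of 0.78 ± 0.66, UPK2 of 0.68 ± 1.11, UPK1B of -1.11 ± 0.96 and UPK3BL of -1.63 ± 0.89, with overlapping groups for each. All 4 had values of 83.8 normalized counts or less in the 8 samples.

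The other 9 named genes that were higher after TGFBRi included CDHR1 and GIPC2. CDHR1, a cadherin known from photoreceptors, had 0, 51.8, 0 and 31.7 normalized counts in vehicle and 101.4, 144, 73.96 and 109 in TGFBRi-treated rats, a log2 difference of 4.03 ± 1.20 (3.13 without C6N, 1 of the 2 vehicle rats at 0). The size of that difference depended on how values of 0 were treated, being 2.86 with a pseudocount of 5, 2.30 by edgeR and 2.37 by DESeq2. GIPC2, a PDZ-domain adaptor protein, had 21.7, 45.2, 31.9 and 27.6 in vehicle and 72.4, 54.9, 153 and 98.2 in TGFBRi-treated rats (log2 difference 1.498 ± 0.53). For both genes all treated rats lay above all vehicle rats, as the naming rule required. IL1A, an alarmin cytokine, had 89.04, 378, 382 and 476 in vehicle and 491, 575, 920 and 543 in TGFBRi-treated rats. The distance between C7R and D7N was small, and the log2 difference of 1.13 ± 0.48 was 0.58 without C6N. SHISA8, a transmembrane protein of the Shisa family, had 34.2, 588, 745 and 731 in vehicle and 1334, 809, 1022 and 1424 in TGFBRi-treated rats, and its log2 difference of 1.78 ± 0.78 was 0.71 without C6N.

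The remaining higher genes had differences of about 1 on the log2 scale. CLCN3, an endosomal chloride-proton exchanger, had 145 ± 54.3 (SD, n = 4) normalized counts in vehicle and 290 ± 97.1 in TGFBRi-treated rats. PELI2, a ubiquitin ligase of interleukin-1 and Toll-like receptor signaling, had 86.6 ± 32.8 and 173 ± 38.5. ESRRA, an orphan nuclear receptor of mitochondrial metabolism, had 349 ± 117 and 617 ± 199. TBKBP1, an adaptor of the kinase TBK1, had 64.2 ± 10.98 and 128 ± 40.4. Their unadjusted limma p lay between 0.0236 and 0.0417 and their adjusted limma p was 1.0.

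CD74, the invariant chain and a chaperone of MHC class II molecules in antigen-presenting cells, was the gene with the smallest unadjusted p among those that were lower. It had 6827, 3234, 6080 and 5522 normalized counts in vehicle rats and 1451, 1285, 1432 and 2817 in TGFBRi-treated rats. Every treated rat lay below every vehicle rat, with a log2 difference of -1.66 ± 0.36, an unadjusted limma p of 0.000491 and an adjusted limma p of 1.0. The difference was -1.53 without C6N. In the basal sort of the same rats CD74 had means of 729 and 677 normalized counts, a log2 difference of -0.13. The luminal minus the basal difference was -1.53 ± 0.49 (unadjusted limma p of 0.00782).

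Of 6 MHC class II genes tested, 5 had a negative and 1 a positive difference, 4 of them were lower at an unadjusted p below 0.05 (1.53% of all genes), and the median log2 difference was -1.76 against -0.08 over all genes. Without C6N it was -1.41, and CD74 was the 1 member whose groups did not overlap. RT1-DA, an alpha chain of the molecule, had 2341, 172, 708 and 359 normalized counts in vehicle and 93.1, 98.01, 124 and 256 in TGFBRi-treated rats. RT1-DB1, the matching beta chain, had 2034, 334, 1182 and 462 in vehicle and 143, 114, 613 and 212 in TGFBRi-treated rats. RT1-BA, an alpha chain of the second class II molecule, had 1022, 168, 681 and 345 in vehicle and 101.4, 106.5, 234 and 259 in TGFBRi-treated rats. For each of these genes C6R had the lowest and C6N the highest vehicle value. The groups overlapped through C6R, and for RT1-DB1 also through C7R, which lay below D8N. Log2 differences were -2.11 ± 0.65, -1.86 ± 0.61 and -1.48 ± 0.54, and without C6N they were -1.43, -1.40 and -1.09. CIITA, the transactivator of these genes, had no more than 26 normalized counts in a sample and a difference of -2.01 ± 1.05, and RT1-BB, with 0 in 2 rats, had 0.12 ± 1.86. The RT1 genes are similar in sequence and differ between haplotypes of an outbred strain, so reads may be split between them.

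Leukocytes carry class II molecules, and the markers on the leukocyte list were low in these samples. The 14 leukocyte genes in the files summed to 206 to 912 normalized counts in vehicle and 171 to 305 in TGFBRi-treated rats. The highest sum was that of C6N. The 12 tested had a median log2 difference of -0.69, which was -0.02 without C6N, -1.04 without D8N and -0.77 without both. Of these 12, 9 were lower and 3 higher. PTPRC, which encodes CD45, was at 0 in C6R, C7R, D7N and D7R and had 9.13 normalized counts in C6N, 2.78 in C7N, 17.5 in D8N and 10.8 in D8R. CD79B, a B cell receptor subunit, had 34.2, 13.7, 62.4 and 11.4 in vehicle rats and 3.10, 11.1, 0 and 0 in treated rats, with a log2 difference of -3.25 ± 0.98 (unadjusted limma p of 0.00527). Some genes outside the list were high in 1 vehicle sample. FCRLA, a B cell gene, had 624 in C7N and at most 4.57 elsewhere. The macrophage complement genes C1QB and C1QC had 583 and 498 in C6N and at most 29.6 elsewhere. The sort took cells negative for CD45. The parts of luminal cells, of B cells and of other leukocytes in the CD74 difference were not tested. In bulk samples fewer cells of a type and less RNA per cell cannot be told apart.

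**Figure D3:**
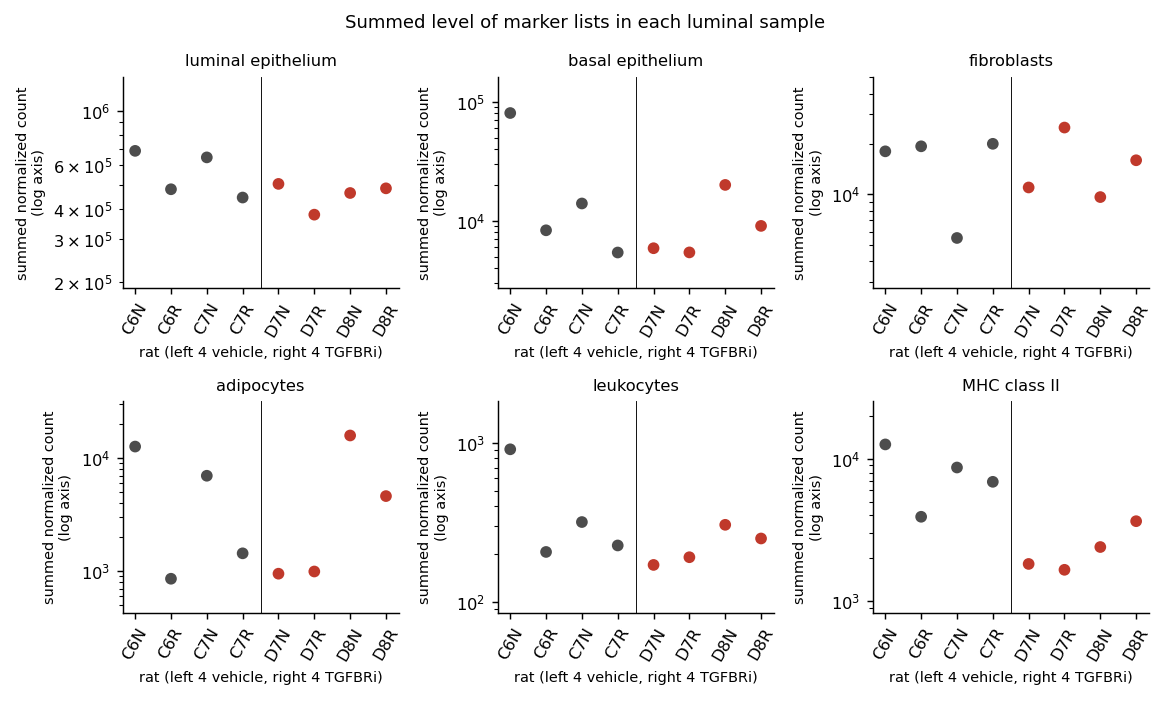
Summed normalized counts (log axes) of 6 gene lists in each luminal sample, with the 4 vehicle rats in grey at the left and the 4 TGFBRi-treated rats in red at the right of each panel. C6N is highest for basal epithelium and leukocytes, and D8N for adipocytes. All vehicle rats lie above all TGFBRi-treated rats for MHC class II, a sum in which CD74 has the largest part. CD74 was picked for groups that do not overlap, and the groups of the other members overlapped.

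The other named genes that were lower included secreted and matrix proteins. PTX3, a long pentraxin of innate immunity, had 315, 109, 121 and 661 normalized counts in vehicle and 65.2, 84.9, 52.4 and 35.9 in TGFBRi-treated rats (log2 difference -1.99 ± 0.57). COL9A2, a chain of collagen IX, had 499 ± 64.4 (SD, n = 4) and 250.4 ± 52.8. PLAT, tissue plasminogen activator, had 735 ± 279 and 325 ± 126. EMILIN1, a glycoprotein of elastic fibers, had 168 ± 112 and 53.1 ± 26.8. BMP7, a ligand of the bone morphogenetic protein branch of the TGFβ superfamily, had 535, 460, 429 and 391.96 in vehicle and 356, 179, 176 and 178 in TGFBRi-treated rats, so that D7N lay just below the vehicle rats. FAM101B, a filamin-binding protein, had 905 ± 134 and 487 ± 63.2, and GAS7, a cytoskeletal protein, had 181 ± 31.7 and 73.5 ± 36.5. PRAF2, a membrane protein of the prenylated Rab acceptor family, had 148 ± 27.8 and 59.03 ± 15.9, and GOT1, the cytosolic aspartate aminotransferase, had 242 ± 87.1 and 99.1 ± 46.1. Their unadjusted limma p lay between 0.00408 and 0.0109, and without C6N their log2 differences lay between -1.84 and -0.80.

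Of the 10 lower genes, 8 had a mean in the basal samples of the same rats that was over 2 times their luminal mean, with ratios from 2.82 for PRAF2 to 13.5 for GAS7. CD74 and GOT1 had ratios of 0.196 and 1.85. Among the 192 genes that were lower at an unadjusted p below 0.05, 53.1% had a basal level over 2 times the luminal one, against 13 of the 52 higher genes and 26.2% of all genes tested. All 12 tested members of the basal epithelium list had a negative difference (7295 of the 12584 genes did), 4 of them at an unadjusted p below 0.05 (1.53% of all genes). Their median log2 difference was -1.13, and it was -0.66 without C6N, -1.65 without D8N and -1.06 without both. Their summed level was 80296 normalized counts in C6N, 8335 in C6R, 13990 in C7N and 5427 in C7R, and 5895, 5438, 20024 and 9074 in D7N, D7R, D8N and D8R, against 128862 to 277930 in the basal samples. Groups overlapped for this sum, C6N held the highest value, and D8N lay above the other 3 vehicle rats. KRT5, a basal keratin, had 3625, 432, 419 and 235 in vehicle and 256, 106.5, 468 and 62.3 in TGFBRi-treated rats. CNN1, a smooth muscle calponin of myoepithelial cells, had 4257, 169, 197 and 71.4 in vehicle and 31.03, 44.4, 190 and 73.1 in TGFBRi-treated rats. The part of basal cells in the differences of the 8 genes was not tested.

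**Figure D4:**
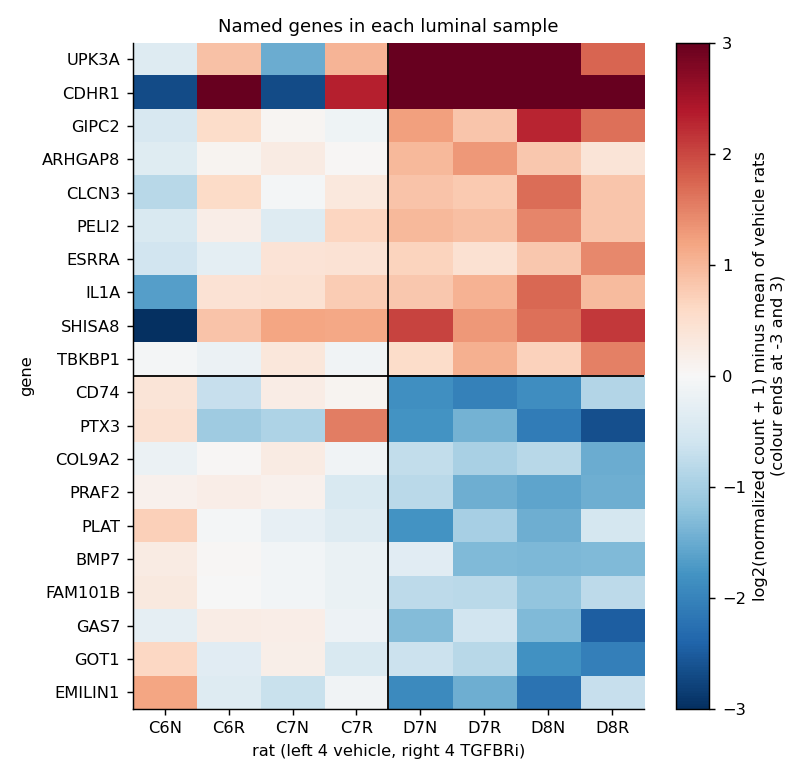
Colour gives log2(normalized count + 1) of each named gene (rows) in each luminal sample (columns) minus the mean of the 4 vehicle rats, ending at -3 and 3. By the rule that picked them, the upper 10 genes are higher and the lower 10 lower in all TGFBRi-treated rats. C6N departs from the other vehicle rats for SHISA8 and IL1A, and CDHR1 is at 0 in C6N and C7N.

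Genes of the TGFβ pathway lay on both sides of 0. Among ligands, TGFB3 had 2950, 2793, 2620 and 4002 normalized counts in vehicle and 3463, 2691, 2024 and 2064 in TGFBRi-treated rats, and TGFB1 and TGFB2 had log2 differences of 0.21 ± 0.48 and -0.06 ± 0.43. Of the 8 ligands and 9 receptors tested, 0 had an unadjusted p below 0.05, with median differences of 0.00 and 0.01, and the receptors spanned -0.84 to 0.76. The ligand median was -0.26 without C6N, and the receptor median lay between -0.34 and 0.22 with 1 rat left out. The target of the drug, TGFBR1, had 160, 123, 26.4 and 224 in vehicle and 115, 257, 57.8 and 46.7 in TGFBRi-treated rats, and TGFBR2 had a log2 difference of 0.04 ± 0.41. TGFBRi acts on the kinase protein, so these transcript values do not check the labels. Of the 7 SMAD genes, 0 had an unadjusted p below 0.05. SMAD3, a transducer of the pathway, had a log2 difference of 0.35 ± 0.32, SMAD4, the shared partner, of 0.74 ± 0.42, and SMAD7, the feedback inhibitor, of -0.10 ± 0.43. The lowest and highest were SMAD5, a transducer of BMP signals, at -0.91 ± 0.55 and SMAD6, an inhibitor of that branch, at 0.87 ± 1.22.

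Among feedback inhibitors PMEPA1, which sequesters SMAD2 and SMAD3, had 909, 2862, 2060 and 1623 normalized counts in vehicle and 1310, 1266, 452 and 891 in TGFBRi-treated rats. The groups overlapped through C6N, which had the lowest vehicle value, and the log2 difference was -0.92 ± 0.43 (unadjusted limma p of 0.0494), or -1.23 without C6N. BAMBI, a pseudoreceptor, had a difference of -0.65 ± 0.37, and 1 of the 8 feedback inhibitors was lower at an unadjusted p below 0.05 (1.53% of all genes). Of 23 TGFβ targets tested, 16 were lower and 7 higher, and PMEPA1 was again the 1 at an unadjusted p below 0.05. Their median of -0.29 lay below the -0.08 of all genes, and it ranged from -0.56 to -0.14 with 1 rat left out, the latter without C6N. CTGF, a matricellular protein, had a difference of -1.15 ± 0.59, COL4A1, a basement membrane collagen, of -0.70 ± 0.45, and CYR61, a relative of CTGF, of 0.66 ± 0.49. The ID genes encode inhibitors of basic helix-loop-helix factors that respond to TGFβ and BMP signals. ID4 had 460, 114, 164 and 111 in vehicle and 62.1, 107.8, 75.3 and 83.8 in TGFBRi-treated rats, which did not overlap (log2 difference -1.12 ± 0.49, unadjusted limma p of 0.0408, or -0.66 without C6N). ID1, ID2 and ID3 had differences of 0.13 ± 0.38, 0.12 ± 0.34 and -0.65 ± 0.50. ID4 had a mean of 1753 normalized counts in the basal samples of vehicle rats, and the part of basal cells in its difference was not tested.

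**Figure D5:**
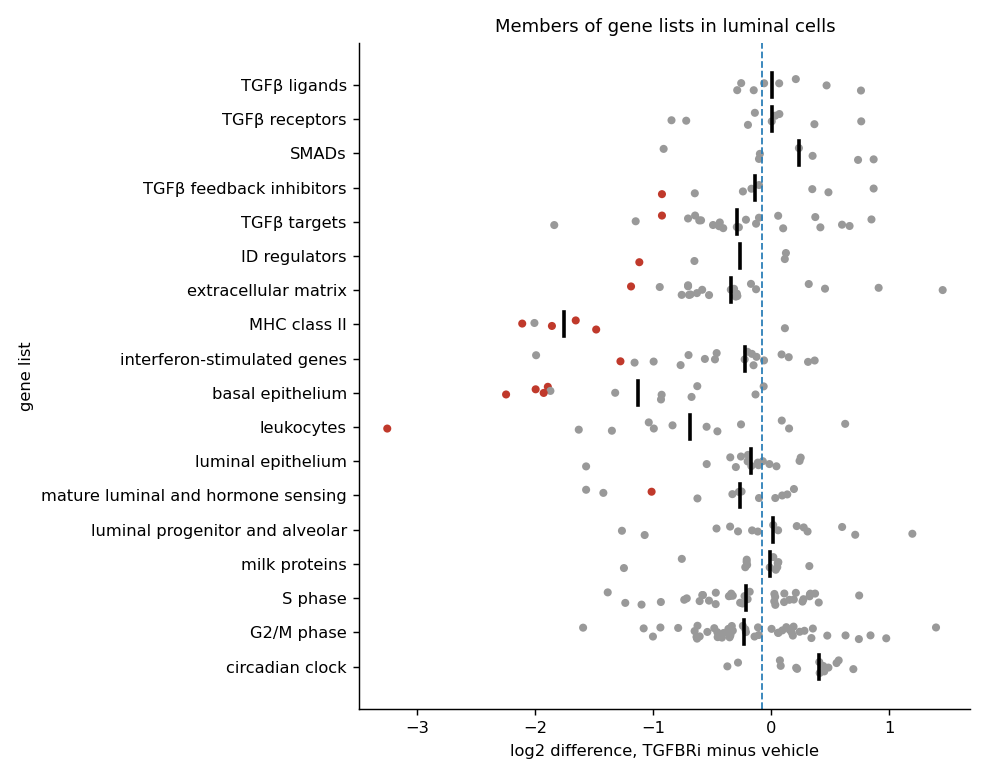
Each point is a tested member of a gene list (rows), plotted by its log2 difference between TGFBRi and vehicle luminal samples, red at an unadjusted limma p below 0.05. Black bars are list medians and the dashed line is the median of all genes, -0.08. MHC class II (-1.76) and basal epithelium (-1.13) have the lowest medians of the lists shown.

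Genes of luminal identity were examined beside shares over all genes of 0.413% higher and 1.53% lower at an unadjusted p below 0.05. Of 15 genes of the luminal epithelium list, 12 were lower and 3 higher with 0 at an unadjusted p below 0.05, and the median of -0.17 was -0.03 without C6N. Among 12 genes of the mature luminal list AREG, the EGF receptor ligand that acts downstream of the estrogen receptor, was the 1 with an unadjusted p below 0.05, and the list median of -0.26 lay between -0.68 (without C6N) and 0.02 with 1 rat left out. AREG had 3222, 3444, 2943 and 1237 normalized counts in vehicle and 2011, 1179, 1163 and 883 in TGFBRi-treated rats, with a log2 difference of -1.01 ± 0.39 (unadjusted limma p of 0.0223) and an overlap through C7R. The receptors ESR1 and PGR had differences of -0.62 ± 0.93 and 0.04 ± 0.75, and FOXA1 and GATA3, transcription factors of these cells, of 0.14 ± 0.77 and 0.19 ± 0.58. The progenitor and alveolar list had a median of 0.02 over 15 genes, of which CYP24A1, the vitamin D 24-hydroxylase, had the smallest unadjusted p, with a difference of 1.20 ± 0.59. The 13 milk protein genes had a median of -0.01, or 0.35 without C6N. WAP, a whey protein, had 3615, 1736, 2477 and 1173 in vehicle and 1663, 2481, 2238 and 4843 in TGFBRi-treated rats.

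Proliferation genes had wide intervals. The S phase list (38 genes, median -0.21) and the G2/M list (48 genes, median -0.23) each had 0 genes at an unadjusted p below 0.05. Both medians changed sign with the rat left out, lying between -0.35 and 0.08 for S phase and between -0.71 and 0.10 for G2/M. Without C6N they were -0.32 for S phase and -0.71 for G2/M. MCM6, a subunit of the replicative helicase, had 342, 943, 419 and 547 normalized counts in vehicle and 1309, 339, 88.7 and 139 in TGFBRi-treated rats, so the highest and the lowest value both came from treated rats. CCND1, the G1 cyclin, had a log2 difference of -0.73 ± 0.37, and CDKN1A, which encodes the CDK inhibitor p21, of 0.38 ± 0.32.

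The lists of lipid synthesis, glucocorticoid-responsive, interferon-stimulated, extracellular matrix and BMP genes had 1 gene each at an unadjusted p below 0.05, where 0.413% of all genes were higher and 1.53% lower. FASN, fatty acid synthase, had 2450, 4995, 3712 and 9538 normalized counts in vehicle and 10784, 10176, 4776 and 12103 in TGFBRi-treated rats. It was the 1 of 17 lipid synthesis genes at that level (0.97 ± 0.45, unadjusted limma p of 0.0490), and the groups overlapped, C7R lying above D8N. Among 11 glucocorticoid-responsive genes FKBP5, a co-chaperone of the glucocorticoid receptor, had 146, 195, 84.6 and 112 in vehicle and 356, 294, 151 and 283 in TGFBRi-treated rats (1.00 ± 0.41, unadjusted limma p of 0.0281). TSC22D3, another gene induced by glucocorticoids, had 1574, 1753, 1766 and 1283 in vehicle and 2073, 3089, 2217 and 2265 in TGFBRi-treated rats. Its groups did not overlap and its difference was 0.59 ± 0.29 (unadjusted limma p of 0.0631). The list as a whole had 7 genes higher and 4 lower, with a median of 0.05, or 0.23 without C6N. Of 19 interferon-stimulated genes 15 were lower, and OASL, an antiviral oligoadenylate synthetase relative, had a difference of -1.28 ± 0.47 (unadjusted limma p of 0.0170), with a list median of -0.22, or -0.40 without C6N. Of 14 circadian clock genes 12 were higher, with 0 at an unadjusted p below 0.05 and a median of 0.41 that was 0.08 without C6N. The extracellular matrix list had 17 of 21 genes lower and a median of -0.34, with LAMB3, a laminin chain, at -1.19 ± 0.49 (unadjusted limma p of 0.0303). The median of that list lay between -0.67 and -0.25 with 1 rat left out. Of 11 genes of the BMP list 7 were lower, BMP7 was the 1 at an unadjusted p below 0.05, and the median of -0.59 was -0.24 without C6N and lay between -0.61 and 0.06 with 1 rat left out. The lists of cholesterol synthesis, ketone and fatty acid oxidation, IGF axis, heat shock, immediate early genes, CDK inhibitors, fibroblasts, endothelium, adipocytes and secretory basal cell markers had 0 genes at that level, and their medians lay between -0.59 and 0.14. Without C6N the median moved from -0.59 to -0.16 for the IGF axis, from -0.50 to 0.35 for fibroblasts and from -0.20 to 0.30 for adipocytes. It also moved from 0.10 to -0.23 for immediate early genes, from 0.14 to -0.06 for heat shock genes, from -0.17 to 0.08 for secretory basal cell markers and from 0.00 to -0.20 for cholesterol synthesis. With any 1 rat left out the median lay between -0.90 and 0.30 for adipocytes and between -0.80 and 0.35 for fibroblasts. For endothelium it lay between -0.64 and 0.01, and for CDK inhibitors between -0.43 and -0.03. In the EGF family list AREG, and in the chemokine and cytokine list IL1A, was the 1 gene at that level.

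The spread between rats of 1 group was wide. The median SD of log2 values was 0.56 among vehicle and 0.53 among TGFBRi-treated rats over 8784 genes with a mean of at least 50. The 10 genes with the widest spread among vehicle rats were RMT1, SPT1, SPINK8, RT1-BB, MMP13, CAPN8, GLYCAM1, C1QB, FCRLA and C1QC. GLYCAM1, a secreted mucin of the lactating gland, had 11376 normalized counts in C6N against 29.1 to 164 in the other 7 rats. C1QB, a complement gene of macrophages, had 583 in C6N and at most 22.9 elsewhere. RMT1 had 2.28 in C6N against 1071 to 2330 in the others, and CAPN8, a calpain, had 0 against 226 to 378. Of the 8784 genes, 17 were at 0 in C6N and above 0 in the other 7 samples, against 0 to 12 for the others.

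The luminal and basal responses of the same rats were compared in 1 model with the rat as a block. By limma 0 of 13400 genes (0%) differed between the sorts in their response, and 278 (2.07%) had an unadjusted p below 0.05. Of the 20 named genes, 4 of 10 higher and 6 of 10 lower ones had an unadjusted p below 0.05 for that difference. Since they were chosen on the luminal values, this count is a description. For GAS7 the luminal minus basal difference was -1.66 ± 0.61, for GIPC2 1.76 ± 0.66 and for BMP7 -0.96 ± 0.34.

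Another set of SD rats at day 0 gave sorted luminal cells for single-cell RNA-seq, with 3 vehicle and 6 TGFBRi-treated rats, 914 to 3853 cells and 9749725 to 45501762 UMIs per rat. No pair of tables shared more than 0.222% of the barcodes of its smaller table. Doublets had been gated out by scatter in the sort, and no doublet caller was run here. UMIs were summed per rat, and CPM are these sums scaled to the same total in each rat. By edgeR 2469 of 14621 genes (16.9%) differed at an adjusted p of 0.05 or less, of which 1374 were higher, but 0 genes were called without vehicle rat 1, 63 without vehicle rat 2 and 5 without vehicle rat 3. UPK3A had 1, 0 and 53 UMIs in vehicle rats, or 0.0473, 0 and 3.45 CPM, and 96, 214, 13, 912, 0 and 182 in TGFBRi-treated rats, or 5.45, 4.70, 0.330, 34.9, 0 and 5.73 CPM. The groups overlapped, and 4 of 6 treated rats lay above all vehicle rats. The difference was 3.15 on the log2 scale (edgeR adjusted p = 0.189), and an exact two-sided permutation test on log2(CPM + 1) gave p = 0.167. The edgeR difference was 1.69 without TGFBRi rat 4 and 8.14 without vehicle rat 3, which left vehicle rats with 1 and 0 UMIs. The 53 UMIs of the 1 vehicle rat came from 5 of 2001 cells, and the 912 UMIs of the highest treated rat from 99 of 2249. Free RNA was not examined.

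Of the other named genes SHISA8 had 9.45, 6.46 and 10.9 CPM in vehicle rats and 32.9, 26.9, 47.9, 71.5, 11.6 and 9.55 in TGFBRi-treated rats. Its log2 difference of 2.20 (edgeR adjusted p = 0.0308) had the same direction as in the bulk samples. The groups overlapped, the treated rat at 9.55 CPM lying below the vehicle rat at 10.9. CD74 lay in the opposite direction, at 30.2, 40.0 and 19.5 CPM in vehicle and 45.8, 45.03, 331, 76.01, 28.3 and 15.2 in TGFBRi-treated rats (log2 difference 1.91, edgeR adjusted p = 0.115), with overlapping groups and the highest value in 1 treated rat. GOT1, lower in bulk, was higher in the single-cell sums (log2 difference 1.37, edgeR adjusted p = 0.0323). Per the methods of the study, cells with any PTPRC read or with too few keratin reads were removed, and these tables hold 0 cells with a PTPRC UMI, so leukocyte content cannot be read from PTPRC in them. In all, 6 of 10 genes higher in bulk and 4 of 9 genes lower in bulk had the same sign here, and FAM101B was not among the genes counted. By edgeR 1 of the 10 and 0 of the 9 were called in the same direction, where 16.9% of all genes were called in either. In luminal cells of ACI rats, which were scaled apart and were not tested together with the SD rats, 4 of 10 higher and 9 of 10 lower genes had the same sign. No share of signs over all genes is set beside the single-cell and ACI sign counts, so they are a description. ACI groups did not overlap for 3 of the 10 lower genes in the same direction (14.8% of all ACI genes tested), which were PTX3, with ACI means of 2789 and 917 normalized counts, COL9A2, with 103.7 and 42.2, and FAM101B, with 767 and 493. Among the 10 higher genes they did not overlap for 1 in the same direction (18.7%), CLCN3, with 869.9 and 1377, and for 1 in the opposite direction, UPK3A.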

How the data were processed

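Bulk RNA of sorted cells was sequenced as single-end reads after low-input SMARTer library preparation. Per the study's methods and the labels, the authors used STAR 2.5.1b for alignment to rn6, HTSeq for counting over RefSeq genes (no strand), and size factors from DESeq2 1.30.1 for scaling. The deposited bulk values are these normalized counts (signal), the luminal and basal SD samples having been scaled together. Dividing each sample by its smallest value above 0 returned whole reads for 100% of values above 0 within a tolerance of 0.001. The deposited single-cell values are UMI counts (Cell Ranger, filtered by the authors on keratin and PTPRC reads). In low-input libraries, reads are not independent molecules.

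The values were compared by limma 3.58.1 (trended prior, robust variances) on log2(value + 1) among the 8 samples, with edgeR 4.0.16 and DESeq2 1.42.0 on recovered reads as alternatives (R 4.3.3, Python 3.11.15). edgeR with TMM compared UMI sums over genes with at least 10 UMIs. The luminal and basal comparison paired samples of the same rat, as the animal labels give it. Replicate numbers do not pair vehicle with treated rats. Each rat is 1 sample, and p-values measure the spread between rats.

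Named genes were any called gene, per direction the 10 with the smallest unadjusted p among genes with a mean of at least 50 and groups that did not overlap, up to 4 members per list, and the 10 widest-spread genes among vehicle rats. The comparison and the gene lists were chosen with earlier results of these data known. Alternatives were other pseudocounts (0.5 and 5), filters, scalings, tools, thinning, a joint model with day 87 samples and leaving out each rat. Omitting C6N and D8N together was added after the data were seen. Scripts were tested on simulated counts. Promoter sequences came from RefSeq (GRCr8), and no rn6 coordinates are given because no rn6 genome was used here. 1 gene that the naming rule selects is not reported here. Confidence intervals are 95%.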

Additional observations from a re-analysis of the deposited data

Results flagged for a closer look

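Within groups of 4 rats, the lowest or highest rat was set against the others by the gap to its neighbour as a share of the group's range, on log2 values, for the 20 named genes and 34 gene lists. In 15 groups the share passed Dixon's 95% limit for 4 samples, which chance passes in about 1 of 20 groups. Among TGFBRi-treated rats, D8R lay low for UPK3A (0.849) and high for CD74 (0.845), D8N lay high for CLCN3 (0.924) and low for FAM101B (0.916), and D7N lay high for BMP7 (0.977) and PRAF2 (0.842). Among vehicle rats, C6N lay low for IL1A (0.862) and SHISA8 (0.922), and C7R lay low for PRAF2 (0.894). For mean levels of lists among vehicle rats the shares were 0.846 for TGFβ receptors, 0.919 for TGFβ feedback inhibitors, 0.885 for luminal epithelium, 0.843 for luminal progenitor and alveolar genes, 0.949 for milk proteins and 0.922 for basal epithelium.

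UPK3A was higher in all 4 TGFBRi-treated SD rats and lower in all 3 TGFBRi-treated ACI rats than in the vehicle rats of their strain. D8R, with 7 reads, lay above vehicle rats C6R and C7R, also with 7 reads each, only after scaling. The SD difference exceeded the ACI difference by 14.1 on the log2 scale, and this contrast between strains was not tested. The tables of the strains were scaled separately, and the rats of the strains differed in age at dosing.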

How the results depend on the processing

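Over 380 combinations of named gene and setting the adjusted p was 0.05 or less in 2, both for UPK3A. The named genes were chosen for groups that do not overlap, so their constant direction in these settings is no sign of stability. DESeq2 on the reads called 1 gene, UPK3A (8.77, adjusted p 4.59e-06). Leaving out 1 rat gave 0 to 1 called genes, 182 to 348 genes at an unadjusted p below 0.05 and a UPK3A difference of 6.29 to 8.95. The called gene was UPK3A without D8R. A minimum mean of 10 normalized counts left 132 genes at an unadjusted p below 0.05, where fewer genes were tested. Of the genes at that p, the number that were higher was 52, against 92 with edgeR and 89 with DESeq2, and it rose over 1.5 times without C6R, C7R or D7N and fell over 1.5 times without D8R. Leaving out C6N and D8N gave 0 called genes and 234 at an unadjusted p below 0.05. In the luminal and basal comparison, 0 genes were called with the replicate block, without the replicate block, by edgeR and with any rat left out. The fits with 1 rat left out had 205 to 424 genes at an unadjusted limma p below 0.05. The luminal minus basal UPK3A difference of 2.10 was -0.64 by edgeR on the reads. UPK3A had 0 reads in the basal samples of all 4 vehicle rats, so the size of its basal difference rests on how 0 is treated. The cause of the change in sign was not tested. Single-cell calls moved from 2469 to 4081 with DESeq2 and ranged from 0 to 3952 with 1 rat left out. The shallowest library held 12830394 reads, and values of a few reads, as for UPK3A in vehicle rats, carry counting error beside the spread between rats.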

Other observations

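A group of salivary gland genes was high in the luminal sample of 1 TGFBRi-treated rat, D7R. These genes were picked after their values were seen, for being high in D7R. SPT1, another salivary protein gene, was not highest there, with 265 normalized counts in D7R, 2181 in C6N and 397 in D8N. BPIFA2, a major secretory protein of the parotid gland, had 24221 normalized counts in D7R and at most 34.96 in the other 7 luminal samples. AMY1A, salivary amylase, had 5760 against at most 13.4, PRPMP5, a proline-rich salivary protein, 5109 against 0, and DNASE1, a secreted nuclease, 2355 against at most 5.38. SMR3A had 1996, PIP, a protein of saliva and other exocrine secretions, 1743, and BPIFA2F 1477, against at most 18.8 for these 3 elsewhere. CRISP1 had 4554 in D7R and 475 in D8N. Together the 8 genes made up 0.371% of the D7R total. In the basal sort of D7R, BPIFA2 had 276 normalized counts against at most 0.779 in the other 7 basal samples. The log2 differences of these genes lay between 2.45 and 3.76, and without D7R they were 0.55 for BPIFA2, 0.20 for AMY1A, 0.64 for DNASE1, 0.71 for PIP and 1.84 for CRISP1, the other 3 then being too low to be tested.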
